A study of Mus musculus with 6 samples.

Results

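The genes described here encode the proteins through which polyoma middle T antigen signals: the tyrosine kinases Src, Yes1 and Fyn, the adaptors Shc1 and Grb2, the phosphoinositide 3-kinase subunits Pik3r1 and Pik3ca, the kinases Akt1 and Akt2, and the phospholipase Plcg1. They were chosen by name as known middle T effectors, and every probe set annotated to exactly 1 of these symbols was taken. This gave 20 probe sets for 10 genes, out of 22626 probe sets, which hold 12393 genes with a single symbol. By RefSeq (GRCm38.p6) the genes lie on chromosomes 2 (Src and Plcg1), 3 (Shc1 and Pik3ca), 5 (Yes1), 7 (Akt2), 10 (Fyn), 11 (Grb2), 12 (Akt1) and 13 (Pik3r1). Mammary tumours of F1 females were compared between the cross of AKR/J with PyMT mice (AKR F1, 3 arrays) and the cross of DBA/2J with PyMT mice (DBA F1, 3 arrays). Both crosses carry the PyMT transgene, so no tumour without middle T antigen was measured. The promoter of the transgene, the strain of the PyMT parent and the age of the animals are not given in the sources used here, nor is it stated that each array came from a separate animal. P-values therefore measure the spread between these samples, which may be technical.

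Middle T antigen is a membrane-bound viral protein with no enzyme activity of its own. It binds protein phosphatase PP2A and kinases of the Src family, which phosphorylate it on tyrosines. The phosphorylated tyrosines then dock Shc1, which brings in Grb2 and the Ras pathway, the regulatory subunit of phosphoinositide 3-kinase, which leads to the AKT kinases, and phospholipase C gamma. In the mouse mammary gland the Shc and phosphoinositide 3-kinase docking sites are both known to be needed for fast tumour formation. The steps of this cascade are protein binding and phosphorylation, which arrays do not measure. The values below are levels of the RNAs that encode its parts, on a log2 scale as deposited, where 1 unit is a factor of 2.

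The 8 luminal epithelial markers averaged 11.59, 11.32 and 11.59 in AKR F1 tumours and 11.33, 11.13 and 11.41 in DBA F1 tumours. Among them the adhesion gene Epcam lay between 12.78 and 13.17, and the transcription factor gene Elf3 was the dimmest, between 8.20 and 9.11. None of the 8 passed an adjusted p of 0.05. Elf3 (difference 0.57) and the tight junction gene Cldn3 (1.0005, adjusted p = 0.0857 by limma) lay higher in AKR F1 tumours without overlap. That is 2 of 8 (25%), against 38.4% of all genes at their brightest probe set. The mean was higher in AKR F1 tumours for 5 of the 8 and in DBA F1 tumours for 3 (Krt19, Cdh1 and Krt18, differences -0.43, -0.15 and -0.06). Array medians ran from 7.52 to 7.57. AKR replicate 2 had the narrowest spread of values, with an SD of 1.76, against 1.90 to 2.02 on the other arrays. Control probe sets at the 3′ and 5′ ends of the Gapdh transcript, a measure of RNA integrity and labelling, differed by 0.05, 0.31 and 0.27 in AKR F1 tumours and by 1.20, 0.12 and 0.75 in DBA F1 tumours. The Actb controls gave 0.34, 0.36 and 0.51 in AKR F1 tumours and 0.90, 0.36 and 0.69 in DBA F1 tumours. DBA replicates 1 and 3 stood apart on both controls. The 8 skeletal muscle markers averaged 11.84 on DBA replicate 1, against 6.20 to 9.999 on the other arrays, and the 6 measured adipocyte markers averaged 8.72 there, against 5.87 to 6.81. In such bulk samples fewer cells of a type and less RNA per cell cannot be told apart.

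No member probe set was called between the crosses after adjustment over all 22626 probe sets: by limma, 0 of 20 passed an adjusted p of 0.05, where 0.0972% of all probe sets did, and the adjusted p ranged from 0.119 to 0.916. At an unadjusted p under 0.05 there were 9 of 20 member probe sets (45%), 4 with the higher mean in AKR F1 tumours and 5 with the higher mean in DBA F1 tumours. Over all probe sets the share was 26.1%, made up of 12.9% and 13.2%. The values of the crosses did not overlap in 8 of 20 member probe sets (40%), with AKR F1 above in 2 and DBA F1 above in 6. That share is close to the 39.2% found over all probe sets, of which 23.4% had AKR F1 above and 15.8% DBA F1 above. Differences of AKR minus DBA F1 ran from -0.91 at a Pik3r1 probe set to 2.22 at an Akt1 probe set, with a median of 0.06, against a median of 0.05 over all probe sets. The median size of the difference, whatever its sign, was 0.46 for the members and 0.28 for all probe sets. The count of members passing the adjusted p was 1 without DBA replicate 2 (the dimmer Akt1 probe set), where 0.115% of all probe sets passed, and 9 of 20 with array weights, where 16.4% did. With the Gapdh 3′ minus 5′ value as a covariate, a setting chosen after seeing the data, it was 0 of 20, where 1.3% of all probe sets passed. The largest Gapdh values both fell in DBA F1 tumours, so this covariate does not fully separate RNA integrity from the cross.

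**Figure D1:**
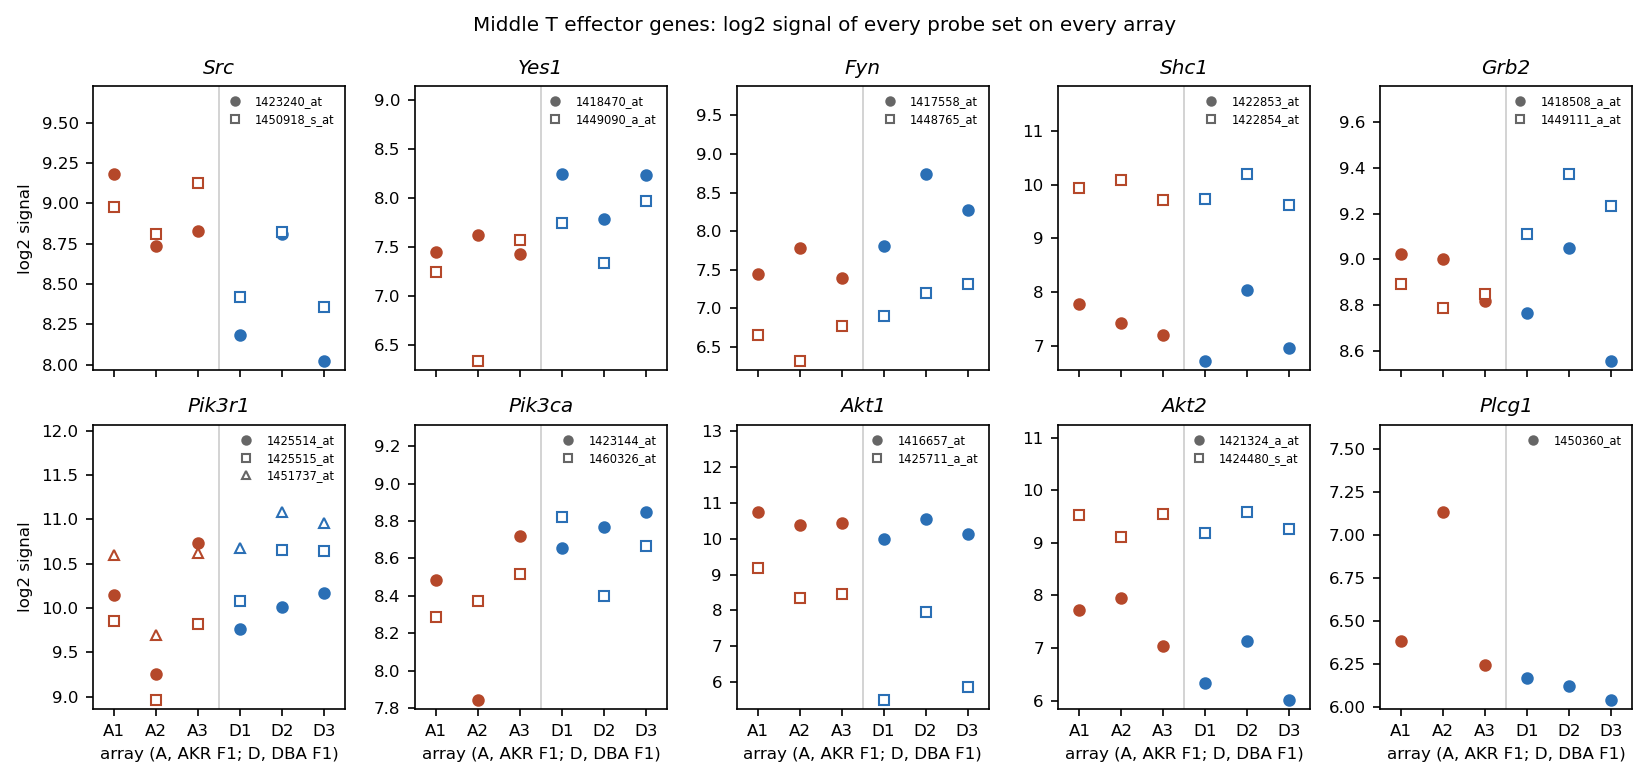
Log2 signal (vertical axis, own scale per panel) of the 20 probe sets of 10 genes on the 6 arrays (A1 to A3, AKR F1; D1 to D3, DBA F1), with a marker shape per probe set. Src is lowest on D1 and D3, both Fyn probe sets lie higher on all DBA arrays, and the Akt1 probe set 1425711_a_at reads 5.51 and 5.87 on D1 and D3 but at least 7.95 on the other arrays.

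The Src family kinases sit at the top of the cascade, and the differences of their transcripts, none of which passed adjustment, had opposite signs. The regions around their start sites are shown because Src lay higher and Yes1 and Fyn lower in AKR F1 tumours. Each window is the C57BL/6J reference in RefSeq (build GRCm38.p6), from 250 bases before to 50 bases after the annotated start, 5′ to 3′ on the plus strand, so sequence differences of AKR/J or DBA/2J are not shown. Capitals mark the GC box, GGGCGG or its reverse CCGCCC, the core bound by Sp factors.
Src, chr2:157424043-157424342: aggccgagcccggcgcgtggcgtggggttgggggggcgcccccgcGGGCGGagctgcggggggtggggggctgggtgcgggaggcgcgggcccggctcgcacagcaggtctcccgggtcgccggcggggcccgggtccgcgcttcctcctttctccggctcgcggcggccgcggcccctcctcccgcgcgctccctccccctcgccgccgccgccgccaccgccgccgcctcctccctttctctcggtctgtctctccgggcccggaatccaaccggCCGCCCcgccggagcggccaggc
Yes1, chr5:32610921-32611220: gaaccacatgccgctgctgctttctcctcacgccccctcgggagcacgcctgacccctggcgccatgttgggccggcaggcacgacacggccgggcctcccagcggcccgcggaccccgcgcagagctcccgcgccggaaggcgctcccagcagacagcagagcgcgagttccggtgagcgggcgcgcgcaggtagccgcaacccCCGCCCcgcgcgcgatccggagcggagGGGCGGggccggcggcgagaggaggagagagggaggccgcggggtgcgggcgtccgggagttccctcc
Fyn, chr10:39369549-39369848: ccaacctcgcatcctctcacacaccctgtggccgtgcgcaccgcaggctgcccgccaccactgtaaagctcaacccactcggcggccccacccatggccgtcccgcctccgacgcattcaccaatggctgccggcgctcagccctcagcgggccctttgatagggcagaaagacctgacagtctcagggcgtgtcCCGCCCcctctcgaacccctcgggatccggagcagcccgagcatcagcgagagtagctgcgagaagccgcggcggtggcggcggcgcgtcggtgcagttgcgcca
The GC box occurred at 2 positions in the Src window, 2 in the Yes1 window and 1 in the Fyn window, and at least once in 35.7% of the 32851 promoter windows of the table, on either strand. CCAAT or its reverse ATTGG occurred once in the Fyn window and in neither of the others, against 37.4% of all windows. TATAAA or its reverse TTTATA was in none of these 3 windows, against 13.6% of all. The GC content was 82.3% for Src, 77.0% for Yes1 and 69.0% for Fyn, against a median of 52.7% over all windows. The motifs are described by their letters alone, and the arrays did not measure binding.

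Src, the founding member of the family and a partner of middle T antigen, tended higher in AKR F1 tumours at both of its probe sets. The brighter probe set (1450918_s_at, whose suffix marks probes shared by several transcripts) read 8.98, 8.81 and 9.13 in AKR F1 tumours, against 8.42, 8.82 and 8.36 in DBA F1 tumours. DBA replicate 2 fell inside the AKR range, while DBA replicates 1 and 3 lay below all AKR arrays. The difference was 0.44 (SE 0.17, adjusted p = 0.172 by limma), a factor of 1.35. The other probe set (1423240_at) read 9.18, 8.74 and 8.83 in AKR F1 tumours, against 8.19, 8.81 and 8.02 in DBA F1 tumours, again with DBA replicate 2 inside the AKR range. Its difference was 0.58 (SE 0.23, adjusted p = 0.184 by limma). DBA replicates 1 and 3 are the arrays with the largest Gapdh 3′ minus 5′ values, and with that value as a covariate the Src differences were 0.26 and 0.25 (adjusted p = 0.439 and 0.496 by limma). The part of RNA integrity in the Src differences was not tested.

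Yes1, a close relative of Src that middle T antigen also binds, tended lower in AKR F1 tumours. Its brighter probe set (1418470_at) read 7.45, 7.63 and 7.43 in AKR F1 tumours, against 8.25, 7.79 and 8.24 in DBA F1 tumours. The crosses did not overlap, and DBA replicate 2 was again the DBA array nearest to AKR. The difference was -0.59 (SE 0.16, 95% interval -0.97 to -0.20), with the lowest adjusted p of the members (0.119 by limma). The dimmer probe set (1449090_a_at) read 7.25, 6.34 and 7.57 in AKR F1 tumours, against 7.75, 7.34 and 7.97 in DBA F1 tumours, and overlapped. It differed by -0.63 (SE 0.33, adjusted p = 0.248 by limma), and by -0.28 without AKR replicate 2. With the Gapdh covariate the brighter probe set differed by -0.38 (adjusted p = 0.300 by limma).

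Fyn, the third family member known to bind middle T antigen, lay lower on every AKR array than on any DBA array at both probe sets. The brighter one (1417558_at) read 7.45, 7.78 and 7.39 in AKR F1 tumours, against 7.81, 8.74 and 8.28 in DBA F1 tumours. It was highest on DBA replicate 2, and AKR replicate 2 lay just below DBA replicate 1. The difference was -0.74 (SE 0.25, adjusted p = 0.147 by limma), a factor of 1.67 higher in DBA F1 tumours. The dimmer one (1448765_at) read 6.66, 6.32 and 6.77 in AKR F1 tumours, against 6.91, 7.19 and 7.31 in DBA F1 tumours, a difference of -0.55 (SE 0.17, adjusted p = 0.135 by limma). With the Gapdh covariate the Fyn differences were -1.10 at the brighter probe set (adjusted p = 0.0897 by limma) and -0.68 at the dimmer one (adjusted p = 0.204), farther from 0 than without it. Fyn is also expressed in lymphocytes and in other non-epithelial cells. The 8 leukocyte markers averaged 8.56, 8.04 and 8.42 in AKR F1 tumours and 8.97, 8.29 and 8.71 in DBA F1 tumours. Their mean was higher in AKR F1 tumours for 2 of the 8 (Cd3e and Laptm5, by 0.48 and 0.20) and higher in DBA F1 tumours for 6. The 8 myoepithelial and smooth muscle markers averaged 8.25, 8.47 and 8.06 in AKR F1 tumours and 8.23, 9.36 and 9.58 in DBA F1 tumours. The members of that list did not move together. The contractile genes Acta2, Mylk, Myh11, Cnn1 and Tagln were highest on DBA replicates 2 and 3, while the basal keratin genes Krt5 and Krt14, at 7.43 each, were at their lowest on DBA replicate 2. The mean was higher in AKR F1 tumours for 3 of the 8 (Krt5, Krt14 and Oxtr, by 0.99, 0.71 and 0.17) and higher in DBA F1 tumours for 5. An unadjusted p under 0.05 was reached by 2 of the 8 leukocyte markers (25%), 1 in each direction, and by 3 of the 8 myoepithelial and smooth muscle ones (37.5%), all with the higher mean in DBA F1 tumours, against 25.2% of all genes. Their part in the Fyn difference was not tested.

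The balance between these kinases was followed as the log2 ratio of their brighter probe sets on the same array, which has meaning only as a change between arrays. Src over Yes1 was 1.52, 1.18 and 1.70 in AKR F1 tumours, against 0.17, 1.03 and 0.12 in DBA F1 tumours. Src over Fyn was 1.53, 1.03 and 1.74 in AKR F1 tumours, against 0.61, 0.08 and 0.09 in DBA F1 tumours. Neither ratio overlapped between the crosses, with mean differences of 1.02 and 1.17. Yes1 over Fyn overlapped, at 0.01, -0.15 and 0.04 in AKR F1 tumours and 0.44, -0.95 and -0.04 in DBA F1 tumours. By exact permutation (two-sided), p was 0.1 for each Src ratio, the lowest value this number of arrays can reach, and 0.25 after Benjamini-Hochberg adjustment over 5 ratios. The other ratios in that adjustment, Akt1 over Akt2 and Pik3r1 over Pik3ca, overlapped. These ratios were chosen after the values were seen. Src was set against genes that differed in the opposite direction, so the lack of overlap is no separate result. A share over all gene pairs was not computed.

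**Figure D2:**
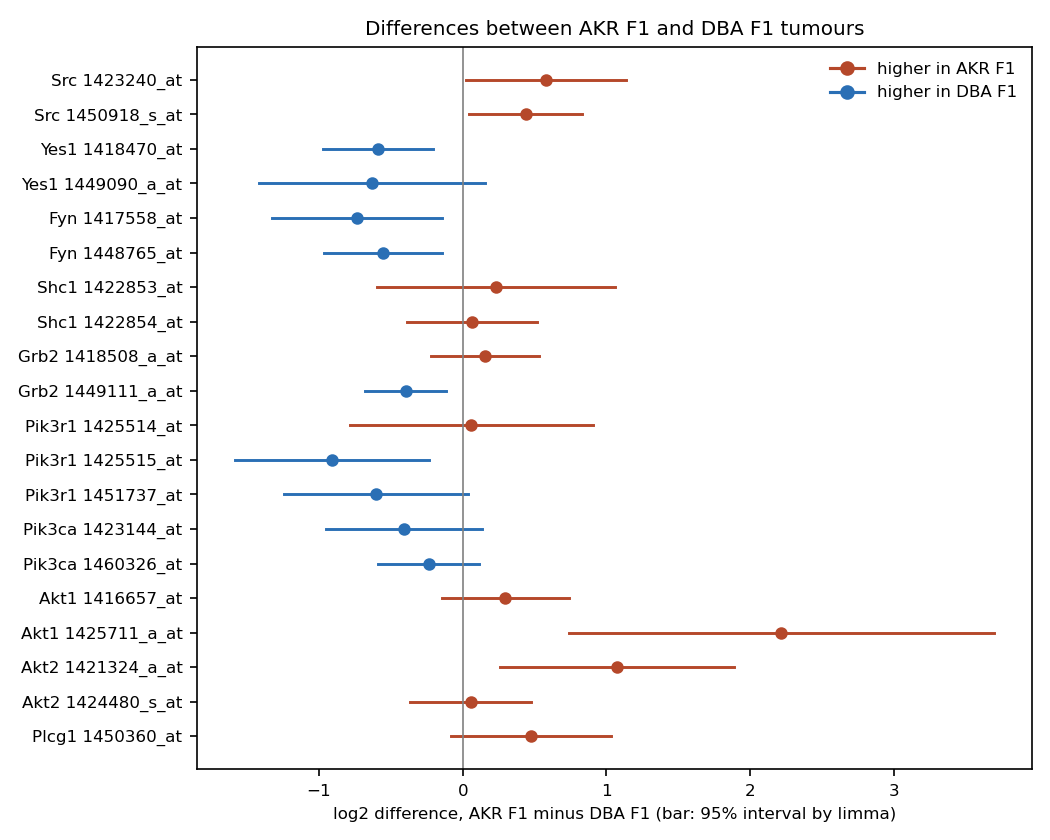
Log2 difference of AKR F1 minus DBA F1 for the 20 member probe sets (points), with the 95% interval by limma before adjustment (bars), coloured by the cross with the higher mean. Both Src probe sets lie to the right of 0, all Yes1 and Fyn probe sets to the left, and the probe sets of Grb2 and of Pik3r1 fall on both sides.

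The adaptor genes showed differences of at most 0.40 in size. Shc1, which middle T antigen docks to reach Grb2 and Ras, read 9.94, 10.09 and 9.71 in AKR F1 tumours, against 9.74, 10.20 and 9.61 in DBA F1 tumours, at its brighter probe set (1422854_at). The crosses overlapped throughout, and the difference was 0.06 with a 95% interval from -0.39 to 0.51 (adjusted p = 0.835 by limma). The dimmer Shc1 probe set (1422853_at) read 7.77, 7.42 and 7.21 in AKR F1 tumours, against 6.72, 8.03 and 6.96 in DBA F1 tumours, where DBA replicate 2 was the highest of all arrays. Its interval was wider, from -0.60 to 1.06. Both Shc1 differences turned negative with the Gapdh covariate (-0.14 at the brighter probe set and -0.38 at the dimmer one).

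Grb2, the adaptor that links Shc1 to the Ras exchange factor Sos1, gave opposite signs at its probe sets. One (1449111_a_at) read 8.89, 8.79 and 8.85 in AKR F1 tumours, against 9.11, 9.37 and 9.23 in DBA F1 tumours, with no overlap and a difference of -0.40 (SE 0.12, adjusted p = 0.129 by limma). The other (1418508_a_at) read 9.02, 9.001 and 8.82 in AKR F1 tumours, against 8.77, 9.05 and 8.56 in DBA F1 tumours, and overlapped at a difference of 0.16 (SE 0.16, adjusted p = 0.503 by limma). On the same array, the second probe set minus the first was 0.13, 0.21 and -0.03 in AKR F1 tumours and -0.35, -0.32 and -0.68 in DBA F1 tumours. No direction can thus be given for Grb2 as a gene. With the Gapdh covariate the differences were -0.51 (adjusted p = 0.175 by limma) and 0.014.

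Pik3r1, which encodes the regulatory subunit that docks on middle T antigen, tended lower in AKR F1 tumours at 2 of its 3 probe sets. The brightest (1451737_at) read 10.59, 9.69 and 10.62 in AKR F1 tumours, against 10.68, 11.08 and 10.96 in DBA F1 tumours. The crosses did not overlap, but AKR replicates 1 and 3 came within 0.1 of DBA replicate 1, and AKR replicate 2 lay far below the rest. The difference was -0.61 (SE 0.27, adjusted p = 0.205 by limma). It was -0.30 without AKR replicate 2, -0.37 after quantile normalization and -0.83 with the Gapdh covariate. A further probe set (1425515_at) read 9.85, 8.97 and 9.82 in AKR F1 tumours, against 10.08, 10.65 and 10.64 in DBA F1 tumours, a difference of -0.91 (SE 0.28, adjusted p = 0.135 by limma) or a factor of 1.88. Its difference was -0.62 without AKR replicate 2 and -1.20 with the Gapdh covariate (adjusted p = 0.160 by limma). Leaving out both AKR replicate 2 and DBA replicate 1 brought that probe set past the threshold (-0.81, adjusted p = 0.0358 by limma), where 2.9% of all probe sets passed. The third probe set (1425514_at) read 10.15, 9.25 and 10.73 in AKR F1 tumours, against 9.76, 10.01 and 10.17 in DBA F1 tumours. It overlapped fully, with a difference of 0.06 and a 95% interval from -0.79 to 0.91.

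Pik3ca, the catalytic subunit that Pik3r1 binds, lay slightly lower in AKR F1 tumours at both probe sets, within the spread of the arrays. The brighter one (1423144_at) read 8.48, 7.84 and 8.72 in AKR F1 tumours, against 8.65, 8.77 and 8.85 in DBA F1 tumours, a difference of -0.41 (SE 0.23, adjusted p = 0.269 by limma). AKR replicate 2 was again the lowest array, as for all 3 Pik3r1 probe sets, and the difference was -0.16 without it. The dimmer one (1460326_at) read 8.29, 8.37 and 8.52 in AKR F1 tumours, against 8.82, 8.40 and 8.67 in DBA F1 tumours, a difference of -0.24 (SE 0.15, adjusted p = 0.309 by limma), which was -0.14 without DBA replicate 1 and -0.044 with the Gapdh covariate.

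Akt1, a kinase activated by the lipid product of phosphoinositide 3-kinase, held the widest difference among the members, at its dimmer probe set only. That probe set (1425711_a_at) read 9.18, 8.35 and 8.46 in AKR F1 tumours, against 5.51, 7.95 and 5.87 in DBA F1 tumours. Every AKR array was above every DBA array, yet DBA replicate 2 lay nearer to the AKR arrays than to the other DBA arrays. The mean was 8.66 ± 0.45 in AKR F1 tumours, against 6.45 ± 1.32 in DBA F1 tumours (SD, n = 3 in both), 4.65-fold higher in AKR F1 tumours (log2 difference 2.22, SE 0.62, adjusted p = 0.121 by limma). The brighter Akt1 probe set (1416657_at) read 10.73, 10.37 and 10.45 in AKR F1 tumours, against 9.99, 10.55 and 10.12 in DBA F1 tumours, and overlapped at a difference of 0.30 (SE 0.19, adjusted p = 0.311 by limma). The dimmer minus the brighter probe set on the same array was -1.55, -2.02 and -1.99 in AKR F1 tumours and -4.48, -2.60 and -4.25 in DBA F1 tumours.

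The low Akt1 readings fell on the arrays with the largest Gapdh 3′ minus 5′ values, 1.20 on DBA replicate 1 and 0.75 on DBA replicate 3. With that value as a covariate, the difference of the dimmer Akt1 probe set was 1.09 (adjusted p = 0.143 by limma) and that of the brighter one 0.02. Without DBA replicate 2 the dimmer probe set passed, at 2.97 (adjusted p = 0.0465 by limma). Both arrays with the large Gapdh values are of the DBA cross, and the part of RNA integrity in the Akt1 differences was not tested.

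**Figure D3:**
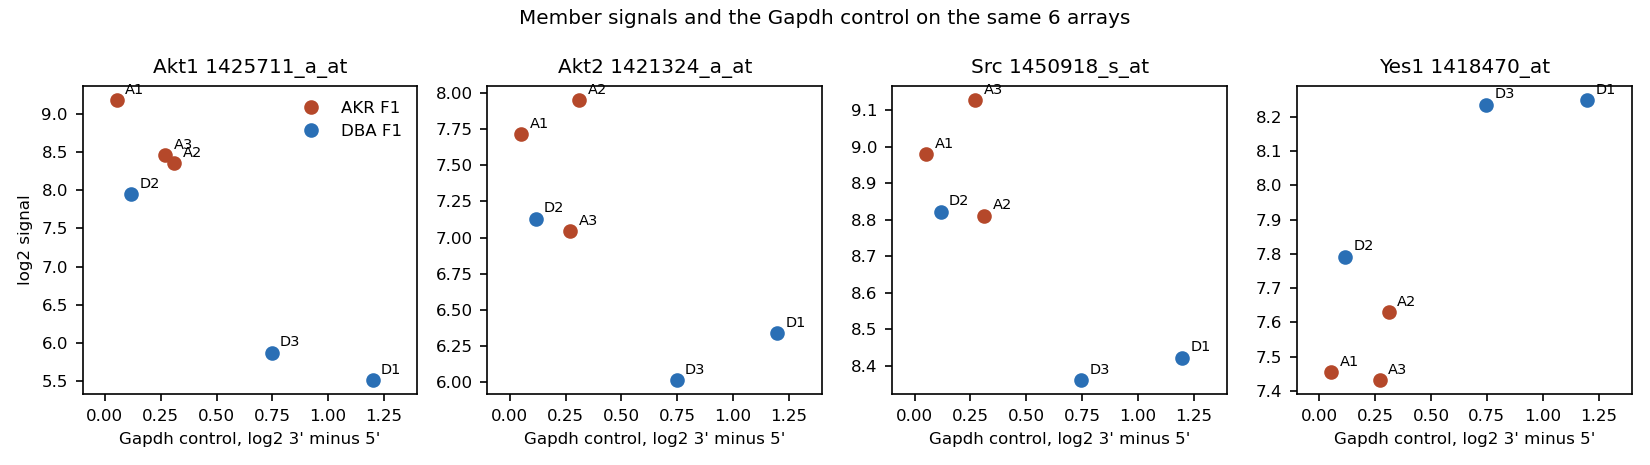
Log2 signal of the dimmer probe set of Akt1 and Akt2 and the brighter one of Src and Yes1 (vertical axes, own scale per panel) against the log2 3′ minus 5′ difference of the Gapdh control (horizontal axis), 1 point per array. These probe sets were picked, and the other member probe sets are not shown. At the probe sets shown, D1 and D3, at 1.20 and 0.75, carry the lowest Akt1, Akt2 and Src readings and the highest Yes1 readings, while D2, at 0.12, lies among or next to the AKR F1 arrays. At the brighter Akt2 probe set, not shown, the lowest array was AKR replicate 2 (9.11).

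Akt2, the family member best known for insulin responses and for cell invasion in mammary tumours, also differed more at its dimmer probe set. Unlike for Akt1, its dimmer minus its brighter probe set on the same array overlapped between the crosses. The dimmer one (1421324_a_at) read 7.71, 7.95 and 7.04 in AKR F1 tumours, against 6.34, 7.13 and 6.02 in DBA F1 tumours. DBA replicate 2 exceeded AKR replicate 3, so the crosses overlapped, at a difference of 1.07 (SE 0.34, adjusted p = 0.138 by limma). The brighter one (1424480_s_at) read 9.52, 9.11 and 9.55 in AKR F1 tumours, against 9.18, 9.58 and 9.26 in DBA F1 tumours, a difference of 0.06 with a 95% interval from -0.36 to 0.48. With the Gapdh covariate the dimmer probe set differed by 0.71 (adjusted p = 0.353 by limma).

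Over the 9 genes with more than 1 probe set there were 11 pairs of probe sets, and 3 pairs, of Grb2 and Pik3r1, had opposite signs. In 5 pairs the within-array difference between the probe sets did not overlap between the crosses: Grb2, the 3 Pik3r1 pairs and Akt1. That is a share of 45.5%, against 32.1% over all 12821 pairs of probe sets of the same gene. Exact permutation (two-sided) put p at 0.1 for each of these, its lowest possible value, and 0.22 after Benjamini-Hochberg adjustment over 11 pairs. Probe sets of a gene that move unequally can read different parts or isoforms of its transcript, and which parts these probe sets read was not analysed here.

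Plcg1, the phospholipase that splits a membrane lipid into second messengers, was represented by a single dim probe set (1450360_at) below the array medians. It read 6.39, 7.13 and 6.24 in AKR F1 tumours, against 6.17, 6.12 and 6.04 in DBA F1 tumours. The crosses did not overlap, but only AKR replicate 2, the array with the narrowest spread of values, stood clear of the rest. The difference of 0.48 (SE 0.24, adjusted p = 0.232 by limma) was 0.20 without AKR replicate 2.

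The genes whose profile over the 6 arrays lay closest to a member were taken for the 3 members whose brightest probe set varied most, by the root mean square difference of log2 values centred per gene. For Fyn these were Camk2g (0.13), a calcium-dependent kinase gene, and Zbp1 (0.13), a sensor of nucleic acids. For Pik3r1 they were Fam13c (0.07) and Tlk2 (0.08), and for Plcg1 they were Mgat5 (0.02) and Rnf112 (0.03). The Zbp1 signal was 7.73, 7.96 and 7.84 in AKR F1 tumours, against 8.28, 9.21 and 8.86 in DBA F1 tumours, highest on DBA replicate 2 as for Fyn. Mgat5 shared the single high reading of Plcg1 on AKR replicate 2 (5.65, against 4.56 to 4.88 on the other arrays), and Rnf112 likewise (8.25, against 7.09 to 7.45). AKR replicate 2 is the array with the narrowest spread of values.

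The wider pathway was read from 5 lists with 85 genes, of which 69 had a probe set with a single symbol, each taken at its brightest probe set. By limma none of the 69 passed an adjusted p of 0.05, where 7 of all 12393 genes did at their brightest probe set. At an unadjusted p under 0.05 there were 18 of 69 (26.1%), with the higher mean in AKR F1 tumours for 5 and in DBA F1 tumours for 13, against 25.2% of all genes (12.6% in each direction). The median difference was -0.08, against 0.05 over all genes. Over all probe sets brighter than the median it was -0.14, so the pathway genes leaned no further to DBA F1 than bright probe sets in general. At an adjusted p of 0.10, where 3.58% of all probe sets passed, Ywhaz and Ppp2r5c did.

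Among the Src family and its regulators, 6 of 11 measured genes (members included) had an unadjusted p under 0.05, with AKR F1 above in 2 and DBA F1 above in 4. This is 54.5%, in a list that holds Src, Yes1 and Fyn, against 25.2% of all genes. Frk, an epithelial kinase related to the Src family, read 6.90, 5.48 and 6.88 in AKR F1 tumours, against 7.44, 7.58 and 8.01 in DBA F1 tumours, with a difference of -1.26 (SE 0.40, adjusted p = 0.137 by limma). Csk, the kinase that switches Src family members off, differed by 0.29, and Ptpra, a phosphatase that can switch them on, by -0.53. Frk and Ptpra were lowest on AKR replicate 2 (5.48 and 8.82), the array with the narrowest spread of values. The differences of pathway genes that are not members are not given here without that array. Fgr, the myeloid family member, differed by 0.38 and did not overlap.

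In the Shc, Ras and ERK module 6 of 15 genes had an unadjusted p under 0.05, with AKR F1 above in 1 and DBA F1 above in 5 (40%, against 25.2% of all genes). The gene with AKR F1 above was Gab2 (difference 0.45, without overlap). The 5 include Grb2, read at 1449111_a_at, whose other probe set had the opposite sign. Gab1, a docking protein that binds Grb2, read 9.51, 9.49 and 9.53 in AKR F1 tumours, against 9.84, 9.97 and 10.07 in DBA F1 tumours, a difference of -0.45 (SE 0.11, adjusted p = 0.110 by limma). The AKR values were nearly equal and all below the DBA values. The ERK kinase gene Map2k1 differed by -0.65, the Ras exchange factor gene Sos1 by -0.58 and the phosphatase gene Ptpn11 by -0.52, each without overlap. Map2k1, Sos1 and Ptpn11 were lowest on AKR replicate 2 (9.77, 6.33 and 9.41). None passed after adjustment.

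In the phosphoinositide 3-kinase and AKT module 2 of 18 genes had an unadjusted p under 0.05 (11.1%, against 25.2% of all genes), both with the higher mean in DBA F1 tumours. Foxo1, a transcription factor that AKT phosphorylates and keeps out of the nucleus, read 8.94, 8.46 and 9.35 in AKR F1 tumours, against 9.53, 10.07 and 9.71 in DBA F1 tumours (difference -0.85, SE 0.25, adjusted p = 0.127 by limma). Foxo3, a related factor, read 9.25, 9.25 and 9.70 in AKR F1 tumours, against 9.94, 9.81 and 10.19 in DBA F1 tumours (difference -0.58, adjusted p = 0.130 by limma). Neither gene overlapped between the crosses. Rheb, the GTPase that activates mTOR, differed by -0.45 and Rictor, a subunit of the mTOR complex that phosphorylates AKT, by 0.32. Foxo1 and Rheb were lowest on AKR replicate 2 (8.46 and 10.40). Foxo1 was read at 1416983_s_at, whose suffix marks probes shared by several transcripts.

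In the phospholipase C gamma module 0 of 9 genes had an unadjusted p under 0.05, against 25.2% of all genes. The inositol trisphosphate receptor genes Itpr2 (0.33) and Itpr3 (0.24) and the Ras exchange factor gene Rasgrp1 (0.45) lay higher, and the kinase gene Prkce (-0.32) lower, in AKR F1 tumours. Rasgrp1 read 7.39 on AKR replicate 2 and 6.13 to 6.45 on the other arrays, the same single high array as Plcg1. That array has the narrowest spread of values. Pik3cd, which is outside this module, was also high there alone (7.43, against 6.37 to 6.62). Prkce was lowest on that array (6.04).

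The remaining list held PP2A subunits, 14-3-3 proteins and the coactivators Yap1 and Wwtr1, all of which bind middle T antigen or act beside it, and 4 of 16 had an unadjusted p under 0.05 (25%, against 25.2% of all genes), in equal numbers per direction. Ywhaz, a 14-3-3 protein, was read at 1448218_s_at, whose suffix marks probes shared by several transcripts. It read 12.15, 11.94 and 11.99 in AKR F1 tumours, against 11.28, 11.40 and 10.97 in DBA F1 tumours. Every AKR array lay above every DBA array, and the difference was 0.81 (SE 0.15, adjusted p = 0.0837 by limma). Ppp2r5c, a regulatory subunit of PP2A, read 9.93, 9.73 and 9.98 in AKR F1 tumours, against 10.69, 10.43 and 10.65 in DBA F1 tumours, a difference of -0.71 (SE 0.13, adjusted p = 0.0837 by limma). Ppp2r1a, the scaffold subunit that middle T antigen occupies, differed by 0.27, and Ywhag, a further 14-3-3 protein, by -0.68. Neither passed at either threshold. They were read at 1455929_x_at and 1450012_x_at, whose suffix marks probes that may also bind other transcripts. Ywhag was lowest on AKR replicate 2 (9.58).

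**Figure D4:**
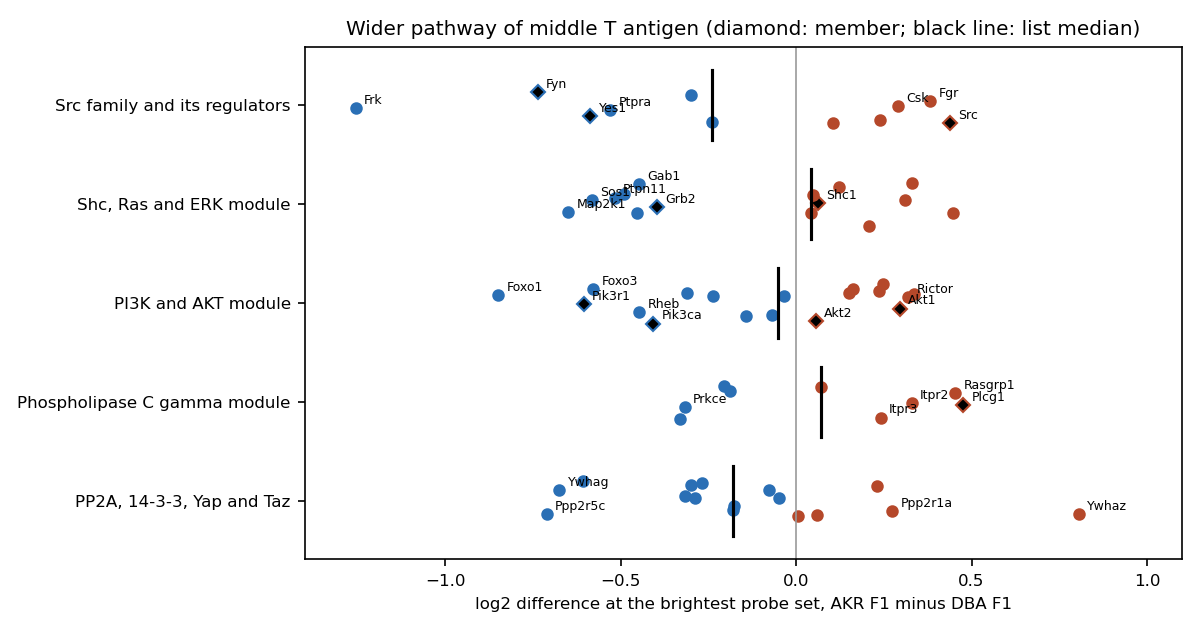
Log2 difference of AKR F1 minus DBA F1 (horizontal axis) for the 69 measured pathway genes in 5 lists, 1 point per gene at its brightest probe set, with members as diamonds and list medians as black lines. The medians lie between -0.24 and 0.07, with Ywhaz (0.81) at the right and Frk (-1.26) at the left end.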

How the data were processed

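Total RNA was extracted with Trizol from frozen tumours and labelled with biotin, per the labels' protocols, and hybridised to 1 Affymetrix array per sample. Values were used as deposited, in log2 units, for 22690 probe sets. The submitters' processing notes name MAS5 as well as RMA, without stating which made the values or how background was handled. Groups follow the labels' source names, and replicate numbers follow accession order and pair nothing.

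The 64 control probe sets were left out of the tests. Of the rest, 20380 had 1 symbol in the platform annotation, 691 several and 1555 none. All 10 members matched the RefSeq gene table (GRCm38.p6) by gene identifier. AKR minus DBA F1 was fitted with limma 3.58.1 in R 4.3.3 (lmFit, eBayes, two-sided, Benjamini-Hochberg over 22626 probe sets), after a check on simulated data. The planted differences there were 2 and 3 log2 units in size, so recovery of smaller differences was not checked. The number of arrays limits the precision, and dim probe sets may lie at background. The members, lists and tests were chosen with earlier results of these data known. Named were all member probe sets, the 4 further genes per pathway list with the smallest p, and the 2 closest profiles for each of 3 members. Values of Gab2 and Pik3cd were given beyond this rule. Of 75 listed genes that are no members, 16 lacked a probe set with a single symbol and were not analysed here. Figures used matplotlib 3.10.9 in Python 3.11.15.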

Additional observations from a re-analysis of the deposited data

How the results depend on the processing

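The 20 member probe sets were refitted under up to 14 other settings, which gave 275 values, of which 250 kept their direction and stayed short of an adjusted p of 0.05, 11 passed and 14 changed sign. Member calls (0 as reported) ranged from 0 to 1 when 1 array was left out, and pathway calls stayed at 0 there. Member calls were 1 without AKR replicate 2 and DBA replicate 1 together, where 2.9% of all probe sets passed. They were 9 with array weights, where 16.4% of all probe sets passed. With array weights 16 of 69 pathway genes passed, against the same 16.4%. At an adjusted p of 0.10, 2 of the 69 passed, against 3.58% of all probe sets. Over all probe sets, the 22 calls became 36 with quantile and 34 with cyclic loess normalization, 102 among probe sets brighter than the median, 3712 with array weights, 810 at an adjusted p of 0.10, 657 without both arrays, 295 with the Gapdh covariate (chosen after seeing the data), and 1 to 263 when 1 array was left out (the low value came without AKR replicate 1 or DBA replicate 3, the high one without DBA replicate 1). Array weights were estimated gene by gene, since the default estimate stopped before converging, and ran from 0.19 on AKR replicate 2 to 2.80 on AKR replicate 1.

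Sign changes occurred at 4 probe sets, with differences of 0.06 at 3 and 0.23 at the dimmer Shc1 one. The brighter Shc1 probe set gave -0.056 (without DBA replicate 3) to 0.24 (without DBA replicate 2), -0.083 with AKR replicate 2 and DBA replicate 1 both left out and -0.14 with the Gapdh covariate, and the dimmer one -0.028 (without DBA replicate 1) to 0.63 (without DBA replicate 2), -0.0038 without both arrays and -0.38 with the covariate. The Pik3r1 probe set 1425514_at gave -0.28 (without AKR replicate 3) to 0.46 (without AKR replicate 2), and -0.071 with the covariate. The brighter Akt2 probe set gave -0.024 (DBA replicate 1 left out) to 0.20 (AKR replicate 2 left out) and -0.14 with the covariate. The cause of these changes was not tested. No paired analysis was possible because the labels give no number shared between the crosses. With 3 arrays per cross, intervals as wide as that of Shc1 leave differences of either sign undetected.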
